A study of Homo sapiens with 12 samples.

Results

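A set of 9 genes of zinc and metal handling was followed through the RNA of the multiple myeloma lines MM1S and MM1R, with or without withaferin A (WA). They are 7 metallothioneins (MT1A, MT1E, MT1F, MT1G, MT1M, MT1X and MT2A), the zinc-sensing transcription factor MTF1 and the zinc exporter SLC30A1. They are the 9 entries with these symbols among the 43735 genes of the deposited count table. The set was chosen with earlier results of these data known. Of these 9 genes, 6 had a read in some culture and 4 had enough reads to be tested (MT1X, MT2A, MTF1 and SLC30A1), against 26497 and 14085 of all genes.

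MM1S is a glucocorticoid-sensitive and MM1R a glucocorticoid-resistant cell line, both established from the same patient's myeloma, a malignancy of plasma cells. WA is a plant steroid lactone that binds cysteine residues covalently, and it was given at 1 µM for 3 h. The 4 groups were untreated MM1S, MM1S with WA, untreated MM1R and MM1R with WA, with 3 biologically independent cultures in each. Cultures are named by their passage number, which was 16, 22 or 23 for MM1S and 4, 6 or 7 for MM1R, so that line and passage cannot be told apart. Sensitivity and resistance are each represented by 1 line, and other differences between these lines cannot be told apart from them. The untreated and the WA culture of one passage are called a pair. The count table holds 17625110 to 19368343 reads for each culture (median 18555625).

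Metallothioneins are very small proteins that are exceptionally rich in cysteine, and the cysteine thiols hold zinc, copper or cadmium in clusters. When free zinc rises in a cell, MTF1 binds zinc through its own zinc fingers and switches on genes that carry metal response elements in their promoters, above all the metallothioneins, which buffer the metal, and SLC30A1 (also called ZnT1), which pumps it out through the plasma membrane. Oxidants and thiol-reactive compounds can release zinc from cysteines, and metallothionein genes are widely used as readouts of such stress. Glucocorticoids are a further known inducer of MT2A.

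Promoter sequences are shown first because the metal response element is the sequence through which MTF1 acts on its target genes. Promoters of 4 of the 9 genes (MT1X, MT2A, MTF1 and SLC30A1) were found in RefSeq (GRCh38.p14), as 300 bases with 250 before the transcription start. Those of MT1A, MT1E, MT1F, MT1G and MT1M are not shown. The core of the metal response element was searched as TGCACNC or TGCGCNC on both strands, and its matches stand in capitals in the 250 upstream bases printed here in the direction of each gene.
MT2A, chr16:56608334-56608583, plus strand: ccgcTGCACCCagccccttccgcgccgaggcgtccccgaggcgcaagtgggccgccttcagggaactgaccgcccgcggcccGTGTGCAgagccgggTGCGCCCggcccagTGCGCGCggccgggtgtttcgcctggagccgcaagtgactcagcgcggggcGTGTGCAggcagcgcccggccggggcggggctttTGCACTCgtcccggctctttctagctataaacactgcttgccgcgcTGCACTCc
MT1X, chr16:56682220-56682469, plus strand: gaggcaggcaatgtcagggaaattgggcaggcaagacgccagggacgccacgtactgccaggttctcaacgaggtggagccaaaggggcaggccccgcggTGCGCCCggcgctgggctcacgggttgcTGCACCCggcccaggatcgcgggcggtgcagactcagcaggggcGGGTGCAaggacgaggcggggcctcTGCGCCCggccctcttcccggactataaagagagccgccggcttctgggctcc
SLC30A1, chr1:211579162-211579411, minus strand: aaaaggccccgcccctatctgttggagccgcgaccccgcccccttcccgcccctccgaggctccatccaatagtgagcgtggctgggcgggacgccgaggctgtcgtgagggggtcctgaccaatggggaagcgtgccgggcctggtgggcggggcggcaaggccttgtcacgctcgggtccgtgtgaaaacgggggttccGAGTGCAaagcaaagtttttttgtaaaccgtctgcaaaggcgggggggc
Over all 300 bases the core occurred 8 times in MT2A, 4 times in MT1X, 2 times in SLC30A1 and 0 times in MTF1. Of the 35116 promoters of the same length in the table, 0.0199% held at least 8 matches, 0.601% at least 4, 8.6% at least 2 and 29.6% at least 1. A core of the antioxidant response element (TGACNNNGC, either strand), the sequence bound by NRF2, occurred once each in MT1X, MT2A and SLC30A1 and in 13.3% of all promoters. The heat shock element searched as GAANNTTC or TTCNNGAA was found in none of the 4 and in 13.5% of all. No match of one motif overlapped a match of another in these promoters. Matches are a description of the letters, not of binding.

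**Figure D1:**
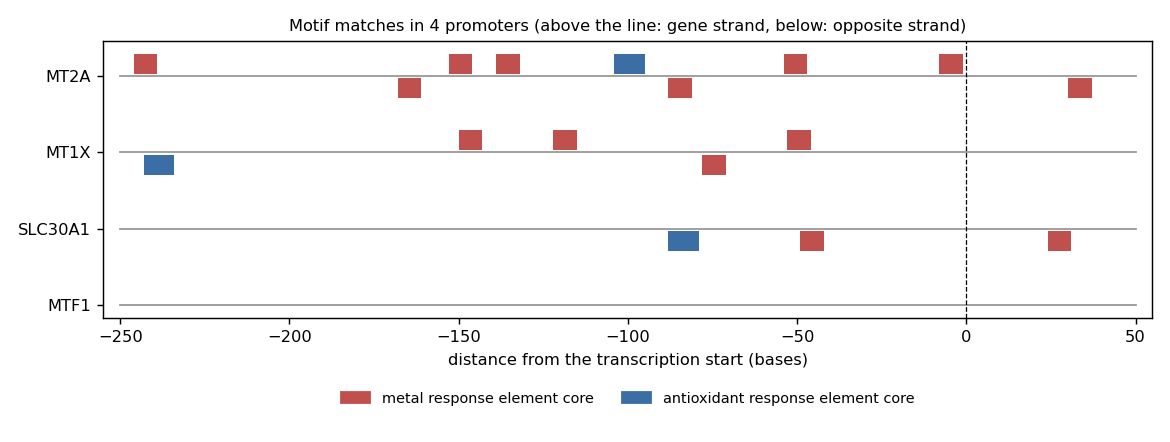
Matches to the metal response element core (red) and the antioxidant response element core (blue) in the 300-base promoters of MT2A, MT1X, SLC30A1 and MTF1. The horizontal axis is the distance from the transcription start in bases, and blocks above or below a line are matches on the gene's own or the opposite strand. MT2A carries 8 and MT1X 4 metal response element cores, SLC30A1 2 and MTF1 0.

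The metallothioneins lie side by side on chromosome 16 (GRCh37), which bears on how their reads were counted. On the plus strand stand MT2A (16:56642496-56643409), MT1E (16:56659387-56661024), MT1M (16:56666571-56667893), MT1A (16:56672578-56673999), MT1F (16:56691643-56694610) and MT1X (16:56716382-56718108). MT1G (16:56700642-56701977) is on the minus strand. MTF1 (1:38275246-38325264, minus strand, 11 exons) and SLC30A1 (1:211744910-211752503, minus strand, 2 exons) lie far apart on chromosome 1. The coding sequences of the 7 metallothioneins were 88.7 to 94.6% identical over the 21 pairs (median 91.9%). They are printed for 3 genes, since their likeness decides how far reads can be assigned, with every base that differs from MT1X in capitals.
MT1X: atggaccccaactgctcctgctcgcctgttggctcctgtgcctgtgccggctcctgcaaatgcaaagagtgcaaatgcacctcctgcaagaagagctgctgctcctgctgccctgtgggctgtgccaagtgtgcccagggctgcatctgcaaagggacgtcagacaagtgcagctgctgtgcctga
MT2A: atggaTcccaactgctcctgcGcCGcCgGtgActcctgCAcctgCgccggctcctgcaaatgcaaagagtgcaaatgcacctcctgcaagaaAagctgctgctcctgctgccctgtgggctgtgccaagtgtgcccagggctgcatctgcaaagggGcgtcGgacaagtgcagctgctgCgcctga
MT1E: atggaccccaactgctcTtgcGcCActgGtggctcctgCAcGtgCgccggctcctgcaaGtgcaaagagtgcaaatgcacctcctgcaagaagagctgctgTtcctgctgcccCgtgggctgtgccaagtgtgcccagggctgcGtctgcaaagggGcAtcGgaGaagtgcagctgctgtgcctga
MT2A differed from MT1X at 14 and MT1E at 17 of 186 bases. Each of the 3 holds 20 cysteine codons among its 61 codons. Reads were 50 bases long at each end, and windows of 50 bases were therefore compared with the transcripts of all other genes. Between 5.76 and 19.9% of the windows of MT1A, MT1E, MT1F, MT1G, MT1M and MT2A were also found in another gene's transcript, against 51% for MT1X, where 33% were shared with an unnamed gene that overlaps MT1X on the same strand. Reads of MT1X in particular could therefore be lost or given to this overlapping gene, if the annotation used for counting holds it. Reads of MT1X could also be moved between copies, and its values are uncertain in these respects. For MTF1 this share was 0.647% and for SLC30A1 0%.

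Metallothioneins had few reads in both lines and in both conditions. All 7 genes together had 762 reads of the 221770536 counted in the 12 cultures, or 3.44 CPM (counts scaled to a library of standard size), of which 442 were on MT1X and 299 on MT2A. The other 5 genes had 21 reads in all. MT1A, MT1E and MT1M had 0 reads in every one of the 12 cultures, which allows up to 0.0135 CPM over all cultures (3 counts, counting error only), although 85.4 to 94.2% of their windows belong to no other gene. MT1G had 0, 1 or 2 reads in each culture. MT1F had 2, 2 and 3 reads in untreated MM1S (passages 16, 22 and 23) and 0, 0 and 0 with WA. In MM1R it had 0, 2 and 0 reads untreated (passages 4, 6 and 7) and 2, 0 and 1 with WA. None of these counts passed the limit of 3 reads per culture, so that a change of MT1F or MT1G was not detectable at this depth. Of the 9 further metallothionein genes and pseudogenes in the table, 8 had 0 reads in all cultures and MT1H had 1.

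MT1X and MT2A were low but present in all 12 cultures. On the scale of CPM per kilobase of transcript (RPKM, from the length of the canonical transcript), the median level over the 12 cultures was 4.56 for MT1X and 3.56 for MT2A. It was 5.38 for MTF1 and 38.1 for SLC30A1. Genes were compared with each other by their mean over the 12 cultures. The median of these means over the 12472 tested genes with a known length was 7.88 RPKM. By the mean, 40.5% of these genes lay below MT1X, 33.8% below MT2A, 42.8% below MTF1 and 84.8% below SLC30A1. The small read counts of MT1X and MT2A thus go with transcripts of only 404 and 401 bases, while those of MTF1 and SLC30A1 have 7937 and 5893. No correction was made for the part of a short transcript that a sequenced fragment cannot start in.

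Genes around the metallothioneins had reads. Within 700 kb of MT2A on either side, 15 metallothionein genes and pseudogenes spanned 117.4 kb, and 10 of them had no read. Among the 14 other protein-coding genes there, 8 had a median of at least 5 RPKM and 4 one under 0.5 RPKM. BBS2, a component of the primary cilium's trafficking machinery that starts between MT4 and MT3, had a median of 8.52 RPKM. NUP93, a nuclear pore subunit and the next gene after MT1X, had 8.8 RPKM, and HERPUD1, which acts in the disposal of misfolded proteins, had 269 RPKM.

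**Figure D2:**
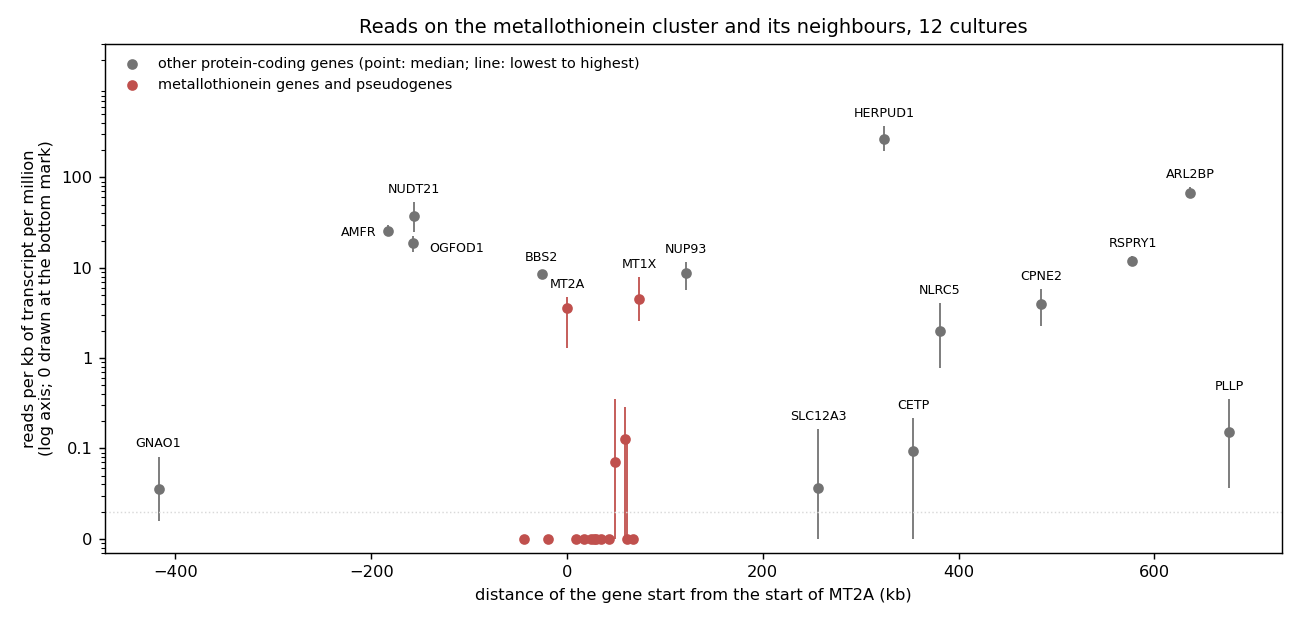
Levels of the metallothionein genes and pseudogenes (red) and of the other protein-coding genes (grey) within 700 kb of MT2A. Points are medians and lines run from the lowest to the highest of the 12 cultures, in RPKM on a log axis with 0 at the lowest mark, against the distance from the start of MT2A in kb. MT2A and MT1X are the only metallothioneins with a median above 1, while BBS2 and NUP93 on either side lie at 8.52 and 8.8.

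No change of a metallothionein with WA was detected in either line, with intervals that leave room for changes of up to about 2-fold. In MM1S, MT1X had 35, 30 and 42 reads untreated (passages 16, 22 and 23) and 52, 35 and 39 with WA. MM1R cultures had 20, 29 and 55 MT1X reads untreated (passages 4, 6 and 7) and 49, 29 and 27 with WA. The groups overlapped in both lines, and in MM1R the passage with the fewest reads untreated had the most with WA. The extreme MM1R cultures untreated, 20 and 55 reads, have exact 95% Poisson intervals of 12.2 to 30.9 and 41.4 to 71.6, which do not meet, so that the spread between untreated cultures exceeded counting error. In CPM scaled by TMM, MT1X stood at 1.82 ± 0.27 (SD, n = 3) in untreated MM1S and 2.27 ± 0.49 with WA, and at 1.95 ± 1.13 in untreated MM1R and 1.96 ± 0.56 with WA. The log2 fold change with WA was 0.32 in MM1S (SE 0.37, 95% confidence interval -0.47 to 1.11) and 0.02 in MM1R (SE 0.37, -0.77 to 0.82), with adjusted p = 0.66 and 0.98 by edgeR's quasi-likelihood test.

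MT2A, often the most abundant metallothionein of human cells, showed no detected change either. Untreated MM1S had 32, 19 and 28 reads and WA-treated MM1S 30, 25 and 24 for passages 16, 22 and 23. Untreated MM1R had 10, 35 and 29 reads and WA-treated MM1R 13, 30 and 24 for passages 4, 6 and 7. Passage 4 of MM1R was the lowest culture in both conditions, and the untreated and WA groups overlapped in each line. Mean levels were 1.34 ± 0.34 and 1.42 ± 0.18 CPM in MM1S without and with WA, and 1.38 ± 0.75 and 1.28 ± 0.52 CPM in MM1R (SD, n = 3). The log2 fold change of MT2A was 0.08 in MM1S (SE 0.43, -0.85 to 1.02, adjusted p = 0.94, edgeR) and -0.10 in MM1R (SE 0.44, -1.05 to 0.85, adjusted p = 0.92). Over both genes and both lines, the 95% confidence intervals of the change ran from 0.482-fold (MT2A in MM1R) to 2.16-fold (MT1X in MM1S). In this fit, which does not use the pairing, changes within this range could not be told from none. Within pairs (pseudocount 0.5 CPM) the log2 changes of MT2A were -0.02, 0.31 and -0.06 in MM1S and 0.23, -0.15 and -0.16 in MM1R. Those of MT1X were 0.52, 0.21 and 0.02 in MM1S and 1.02, 0.03 and -0.79 in MM1R (passages in the same order).

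Since reads may have been moved between near-identical copies, the 7 metallothioneins were also summed. The sum covers moves among these 7 genes only. Reads given to the gene that overlaps MT1X, or not counted at all, are not recovered by it. The sum was 3.3 ± 0.58 CPM in untreated MM1S and 3.75 ± 0.67 with WA, and 3.42 ± 1.74 CPM in untreated MM1R and 3.34 ± 0.12 with WA (SD, n = 3). Single cultures held between 30 and 86 metallothionein reads, both in untreated MM1R. MT1X and MT2A made up 94.6 to 100% of the sum in each culture. For comparison within the same cultures, HMOX1, the heme oxygenase gene of the oxidative stress response, which was picked as a reference after its values were seen, had 174 to 439 reads in the untreated and 10323 to 49388 in the WA cultures.

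**Figure D3:**
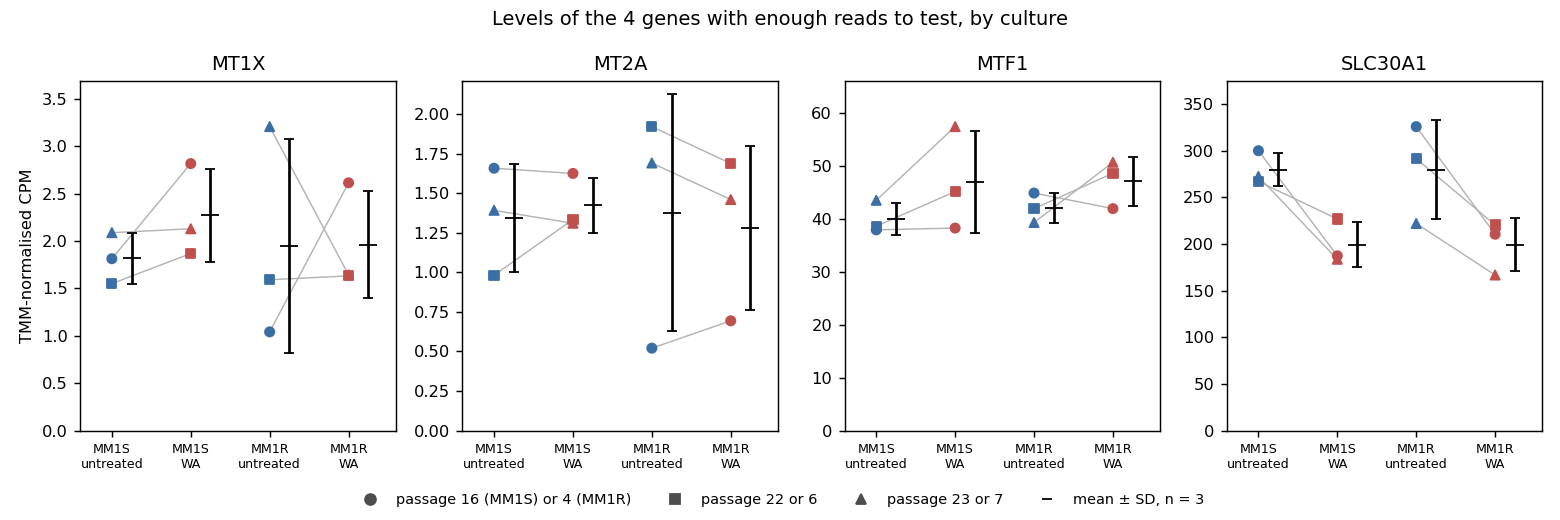
Levels of MT1X, MT2A, MTF1 and SLC30A1 in CPM scaled by TMM, with one symbol per culture, lines that join the untreated (blue) and WA (red) culture of a passage, and black bars for the mean ± SD (n = 3). Untreated and WA cultures overlap for MT1X, MT2A and MTF1, while every WA culture of SLC30A1 lies below every untreated culture of its line (184 to 227 against 267 to 300 CPM in MM1S, 167 to 220 against 222 to 326 CPM in MM1R).

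MTF1, the factor that reads the zinc level, did not pass the test in any comparison. MM1S had 732, 747 and 875 reads untreated and 706, 846 and 1052 with WA (passages 16, 22 and 23), and MM1R had 862, 764 and 674 untreated and 786, 864 and 833 with WA (passages 4, 6 and 7). The highest culture was a WA culture in each line, but the groups overlapped. Means were 40 ± 3.05 CPM in untreated MM1S, 46.9 ± 9.71 in MM1S with WA, 42 ± 2.79 in untreated MM1R and 47.1 ± 4.57 in MM1R with WA (SD, n = 3). The log2 fold change with WA was 0.23 in MM1S (SE 0.14, adjusted p = 0.35, edgeR) and 0.16 in MM1R (SE 0.14, adjusted p = 0.51).

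SLC30A1, the exporter that lowers zinc in the cytosol, was the only member that edgeR called in any comparison, lower with WA in MM1R and of the same size in MM1S just outside the limit. In MM1S it had 5787, 5165 and 5472 reads untreated and 3456, 4247 and 3361 with WA (passages 16, 22 and 23). MM1R had 6254, 5308 and 3805 reads untreated and 3942, 3914 and 2739 with WA (passages 4, 6 and 7). All WA cultures lay below all untreated cultures of their line in CPM, by a wide gap in MM1S and a narrow one in MM1R, where the untreated culture of passage 7 (222 CPM) was close to the WA culture of passage 6 (220 CPM). Among all tested genes, 13.9% in MM1S and 16% in MM1R had groups that did not overlap with WA lower. Where the groups do not overlap, the WA culture is necessarily lower in each pair, here 6 of 6. The log2 changes (pseudocount 0.5 CPM) were -0.68, -0.24 and -0.57 in MM1S and -0.63, -0.40 and -0.41 in MM1R.

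Mean SLC30A1 fell from 279.6 ± 52.9 to 199 ± 28.5 CPM in MM1R (SD, n = 3), a log2 fold change of -0.49 (SE 0.15, -0.81 to -0.17) and 28.8% less RNA, with adjusted p = 0.044 by edgeR's quasi-likelihood test. In MM1S the means were 279.6 ± 17.7 and 199.1 ± 23.9 CPM, a log2 fold change of -0.49 (SE 0.15, -0.81 to -0.17), with adjusted p = 0.053, just outside the limit of 0.05. With the passage as a replicate block the adjusted p was 0.0027 in MM1S and 0.0025 in MM1R, and DESeq2 without the block gave 0.015 and 0.014. The call in MM1R was lost when any one of 8 of the 12 cultures was left out (adjusted p from 0.053 to 0.20), namely passages 4 and 6 untreated and 4, 6 and 7 with WA of MM1R, and passages 22 and 23 untreated and 23 with WA of MM1S. Over all 12 such fits the log2 fold change lay between -0.63 and -0.35. In RNA from whole cultures, a lower level per cell and fewer cells with the transcript cannot be told apart.

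Counted over the members, edgeR called 1 of the 4 tested genes in MM1R (SLC30A1, lower), where 14% of all tested genes were called (7.55% higher and 6.46% lower), and 0 of 4 in MM1S, where 10.5% were called (6.25% higher and 4.23% lower). At an unadjusted p under 0.05, 1 of 4 passed in each line, against 28.4% of all tested genes in MM1R and 24.9% in MM1S. DESeq2 called 1 of the 4 in each line, SLC30A1, and of all 14085 tested genes it called 2483 in MM1R and 1954 in MM1S. In the middle of the 4 genes stood a log2 fold change (median) of -0.04 in MM1R and 0.16 in MM1S, against 0.01 and 0.02 over all tested genes.

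No difference between MM1R and MM1S was called for any of these genes. Untreated, the log2 fold change of MM1R over MM1S was 0.09 for MT1X, 0.03 for MT2A, 0.07 for MTF1 and 0.00 for SLC30A1 (95% confidence interval -0.32 to 0.32 for the latter), with adjusted p of 0.80 or more by edgeR. With WA it was -0.21, -0.16, 0.00 and 0.00, with adjusted p of 0.75 or more. With both limits for lines, an adjusted p of 0.01 and a change of 1 in size on the log2 scale, 0 of 4 were called, where 2.97% of tested genes were called untreated and 3.04% with WA. At an unadjusted p under 0.05 the members gave 0 of 4 as well, against 25.9% and 28% of tested genes. DESeq2 called 0 of 4, and of all 14085 tested genes 571 untreated and 578 with WA. MT1X and MT2A could still differ by up to 1.95-fold between the untreated lines within these intervals. The effect of WA did not differ detectably between the lines either. The difference MM1R minus MM1S was -0.30 for MT1X, -0.19 for MT2A, -0.07 for MTF1 and 0.00 (-0.46 to 0.45) for SLC30A1 on the log2 scale, with adjusted p = 1 for each. Over all genes edgeR called 0% at an adjusted p of 0.05 and 0.689% at an unadjusted p under 0.05. Of the 4 members 0 passed either limit. If no gene differed, a fraction near 0.05 would be expected to pass the unadjusted limit. The test in this fit, which does not use the pairing, was therefore conservative, and the reason was not tested. Its lack of calls cannot show that the lines responded alike to WA.

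Zinc enters the cytosol through the SLC39 (ZIP) importers and leaves it through the SLC30 (ZnT) exporters, and 23 such genes other than SLC30A1 were examined. Of these, 16 had enough reads to be tested (6 of 9 exporters and 10 of 14 importers). With WA, 1 of the 16 was called lower and 0 higher in each line, where 6.46% of all tested genes were called lower in MM1R and 4.23% in MM1S. In both lines it was SLC39A1 (ZIP1), a plasma membrane importer. In MM1S it had 1029, 1303 and 1169 reads untreated and 767, 836 and 927 with WA (passages 16, 22 and 23). In MM1R it had 1313, 1188 and 1125 reads untreated and 820, 889 and 781 with WA (passages 4, 6 and 7). Untreated and WA cultures did not overlap in either line (again against 13.9% of tested genes in MM1S and 16% in MM1R). The log2 fold change of SLC39A1 was -0.50 in MM1R (SE 0.11, adjusted p = 0.011, edgeR) and -0.39 in MM1S (SE 0.11, adjusted p = 0.045). The call in MM1S was lost without any one culture (adjusted p up to 0.21) except untreated passage 16 of MM1S and untreated passage 7 of MM1R. In MM1R it was lost without the WA culture of passage 4 (adjusted p = 0.052). An exporter and an importer of the plasma membrane thus had log2 fold changes of the same sign in both lines.

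Among the other tested transporters the highest log2 fold changes with WA were 0.24 for SLC39A11 in MM1R and 0.21 for SLC30A6 in MM1S, and neither passed the test. The median log2 fold change with WA was 0.03 for the 6 exporters and -0.08 for the 10 importers in MM1R, and 0.16 and -0.03 in MM1S. Between the lines no transporter was called in either condition, while 4 of 16 had an unadjusted p under 0.05 in each, against 25.9% of all tested genes untreated and 28% with WA. SLC30A3, named here after its values were seen, had 5 to 10 reads in the 6 MM1S cultures and 16 to 19 in the 6 MM1R cultures. It passed the filter on low counts through the MM1R cultures, and these reads are given as a description. The 7 transporters that were not tested had at most 2 reads in any culture. Among them is SLC39A7 (ZIP7), which sits in the endoplasmic reticulum, brings zinc into the cytosol and is used by most cells. It is listed at 0 in all cultures together with 5 further numbered entries of its name. Its level is therefore uncertain.

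**Figure D4:**
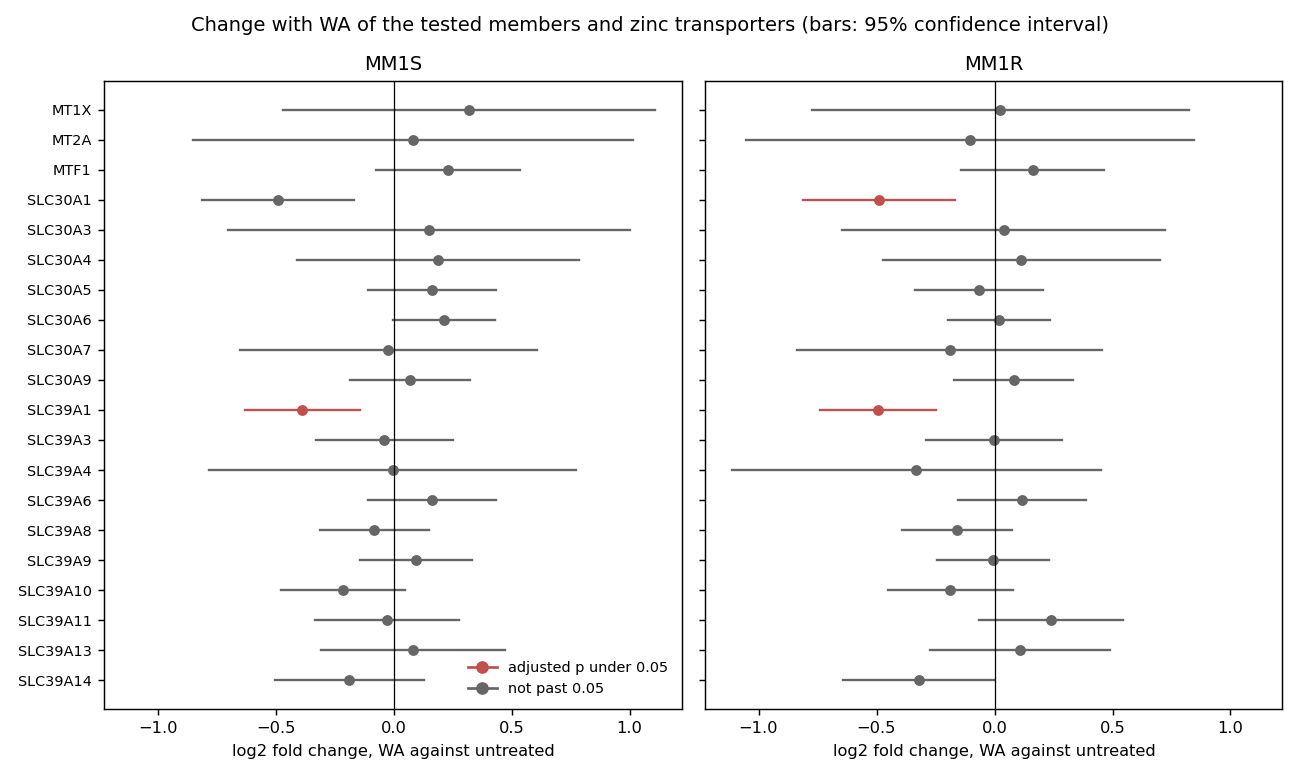
Log2 fold change with WA (horizontal axis, same scale in both panels) of the 4 tested members and the 16 tested zinc transporters in MM1S (left) and MM1R (right), with 95% confidence intervals from edgeR. Red marks an adjusted p under 0.05, which SLC39A1 reached in both lines and SLC30A1 in MM1R, while the intervals of MT1X and MT2A reach far to both sides of 0.

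Metallothioneins also bind copper, and 9 genes of copper handling were examined, 8 of them with enough reads. SOD1, the cytosolic superoxide dismutase that carries copper and zinc, was higher with WA in both lines, and no other gene of the list was called. This is 1 of 8, where 6.25% of all tested genes were called higher in MM1S and 7.55% in MM1R. It had 7641, 7924 and 8526 reads in untreated and 12959, 11094 and 13171 in WA-treated MM1S (passages 16, 22 and 23), and the groups did not overlap (WA cultures were wholly higher for 16.4% of tested genes in MM1S and 17.3% in MM1R). MM1R had 6339, 7636 and 9855 reads untreated and 10422, 12045 and 13843 with WA (passages 4, 6 and 7). There, in CPM, the untreated culture of passage 7 (575) lay above the WA culture of passage 4 (556). Within each pair of MM1R the WA culture was higher, at 330 to 556, 419 to 678 and 575 to 842 CPM (passages 4, 6 and 7). The log2 fold change of SOD1 was 0.71 in MM1S (SE 0.19, adjusted p = 0.027, edgeR) and 0.65 in MM1R (SE 0.19, adjusted p = 0.032). The call in MM1S was lost without untreated passage 16, 22 or 23 or WA passage 16 or 23 (adjusted p up to 0.087). That in MM1R was lost without untreated passage 4 or 6 or WA passage 6 or 7 (adjusted p up to 0.13). On the log2 scale the median change of the 8 genes was 0.05 in MM1S and 0.11 in MM1R.

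The genes with the most similar pattern over the 12 cultures were found by the root mean square difference of centred log2 (CPM + 0.5) among 12318 tested genes with a mean of at least 1 CPM. For MT1X they were MKS1 (0.19), GDPGP1 (0.20), FBXL12 (0.21), RRP7BP (0.23) and FGFBP3 (0.23), where MT1X itself varied by 0.33. For SLC30A1, added after its values were seen, they included ZBTB7A (0.10), TUT7 (0.10), PANK3 (0.10) and NR2C1 (0.11), where SLC30A1 varied by 0.29. The members themselves were left out of this search, and no other metallothionein had enough reads to be tested. It therefore cannot show whether the metallothioneins varied together.

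The cultures carried the markers of their label. All 9 plasma cell markers examined were present, and no marker was under 41.3 CPM. Their summed level was 9950 to 12400 CPM in MM1S and 13200 to 18700 CPM in MM1R. Much of this sum was JCHAIN, with a mean of 6435 CPM in untreated MM1S and 12000 CPM in untreated MM1R. CD38 was the only marker with a lower mean in untreated MM1R (44.5 against 91.3 CPM in MM1S). Between the untreated lines 0 of the 9 were called, against 2.97% of all tested genes. JCHAIN (log2 fold change 0.90, adjusted p = 0.0029, edgeR) missed only the limit on the fold change. CD38 (-1.04, adjusted p = 0.023) missed only that on the adjusted p. With WA, 2 of the 9 were called in each line, against 14% of all tested genes in MM1R and 10.5% in MM1S. IRF4, a transcription factor of plasma cells, was lower (log2 fold change -0.96 in MM1R and -0.73 in MM1S, adjusted p = 0.0032 and 0.019, edgeR), and SLAMF7, a surface receptor, was higher (0.40 and 0.53, adjusted p = 0.026 and 0.0069). Of 10 markers of other cell types, 6 had at most 10 reads in any culture. The T cell gene CD3E had 63 to 211 reads per culture, the erythroid gene HBB 63 to 178 and the epithelial gene EPCAM 5 to 21. The fibroblast collagen gene COL1A1 had 9 to 294. The summed level of the 10 was 10.6 to 14.2 CPM in untreated and 13.6 to 21.6 CPM in WA-treated MM1S. In MM1R it was 17.5 to 20.9 and 22.3 to 34.9 CPM. COL1A1 was called higher with WA in both lines (adjusted p = 0.0045 in MM1S and 0.0039 in MM1R, edgeR). The part of these shifts in the changes of SLC30A1, SLC39A1 and SOD1 was not tested.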

How the data were processed

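RNA from 12 cultures in 4 groups was sequenced as paired reads of 50 bases. The authors checked reads with FastQC 0.11.5, mapped them with STAR 2.7.3a to hg19 and deposited raw counts of reads per gene, with no normalization. The annotation, the strand setting and the treatment of reads with several matches are not given in the sources used here. The authors also deposited a table of normalized signal (counts divided by a DESeq2 size factor), which was not used. Counts of reads without molecular identifiers were used, so that intervals and floors of 3 counts cover counting error only.

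Groups and passage numbers came from the labels. Genes were kept with filterByExpr (minimum count 10, 14085 genes), scaled by TMM and tested in 1 fit of 12 libraries with edgeR 4.0.16 (limma 3.58.1, R 4.3.3) by the quasi-likelihood test, with Benjamini-Hochberg adjustment over all tested genes. The limits were an adjusted p of 0.05 for WA and for the difference between lines, and 0.01 with a log2 fold change of 1 between lines. The scripts were tested on simulated data. Alternatives were DESeq2 1.42.0 and its size factors, 2 other filters, only the libraries compared, other limits, pseudocounts of 0.1 and 2 CPM, passage as replicate block and each library left out.

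Passage numbers pair the untreated and WA cultures of a line per the labels, and deviations from the group mean correlated at 0.43, 0.22 and 0.25 within passages 4, 6 and 7 of MM1R and 0.74, 0.26 and 0.49 within passages 16, 22 and 23 of MM1S. Between passages the correlations reached at most 0.42, and for passage 22 another passage was closer (0.35).

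The members and gene lists were chosen with earlier results of these data known. All 9 members are named, and of each other list the genes past the limit (at most 4 by smallest p). Positions are GENCODE v44 lifted to GRCh37, and promoters are RefSeq, GRCh38.p14. Some results for single genes are not reported here.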

Additional observations from a re-analysis of the deposited data

Results flagged for a closer look

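SLC30A5 (ZnT5), a zinc exporter of the secretory pathway, was singled out because, in CPM scaled by TMM, all 3 MM1R pairs were lower with WA and all 3 MM1S pairs higher. In MM1R it went from 106 to 102, 111.6 to 111.2 and 102.8 to 93 CPM (passages 4, 6 and 7), and in MM1S from 97.1 to 100.1, 108 to 140.2 and 116.2 to 119.4 CPM (passages 16, 22 and 23). Before scaling, the reads were lower with WA in passages 16 and 23 of MM1S as well. It had 2036, 2033 and 1763 reads untreated and 1913, 1976 and 1528 with WA in MM1R (passages 4, 6 and 7), and 1874, 2091 and 2338 untreated and 1847, 2627 and 2187 with WA in MM1S (passages 16, 22 and 23). The effect of WA differed by -0.23 on the log2 scale (MM1R minus MM1S), with an unadjusted p = 0.22 and an adjusted p = 1 in edgeR's interaction test, so that the difference did not pass the limit. Over all genes this test was conservative, as described above, and the result does not show that the effect was the same in both lines.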

How the results depend on the processing

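With these depths and the spread between cultures, which exceeded counting error for MT1X and MT2A (chi-square per degree of freedom 4.38 and 3.45), the intervals of these genes leave room for changes of about 2-fold. Of the 4 tested members, 1 was called with WA in MM1R, but 0 with at least 10 reads in every library (adjusted p = 0.059), with only the libraries compared (0.052), at an adjusted p of 0.01, or without single libraries (0 to 1): MM1S untreated passages 22 (0.061) and 23 (0.059), MM1S WA passage 23 (0.053), MM1R untreated passages 4 (0.13) and 6 (0.13), and MM1R WA passages 4 (0.079), 6 (0.063) and 7 (0.20). In MM1S the count of 0 became 1 with DESeq2's size factors (0.045), no filter (0.0084), DESeq2 (0.015), only the libraries compared (0.035) and the replicate block by passage in edgeR (0.0027) or DESeq2 (1.6e-05). Without single libraries it was 0 to 1, and it was 1 without MM1R untreated passages 4 (0.041) and 7 (0.028), MM1R WA passage 7 (0.041) and MM1S WA passage 22 (0.037). The calls over all 14085 tested genes in MM1S also rose, from 1476 in the main fit to 1954 with DESeq2. With the replicate block they were 3399 in edgeR and 2930 in DESeq2. In all these fits the log2 fold change of SLC30A1 stayed between -0.63 and -0.35. The replicate block changed no other call of a member. The cause was not tested.

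The other calls with WA that were lost concern SLC39A1 and SOD1. Alternatives other than leaving 1 culture out numbered 7. Over them the adjusted p (edgeR or DESeq2) of SLC39A1 was 0.00015 to 0.013 in MM1R and 0.0042 to 0.095 in MM1S. That of SOD1 was 7.1e-11 to 0.072 in MM1R and 6.1e-12 to 0.029 in MM1S. SLC39A1 in MM1S lost its call with no filter (0.07), with only the libraries compared (0.095) and without any single library except MM1S untreated passage 16 and MM1R untreated passage 7 (log2 fold change -0.47 to -0.29), and in MM1R without WA passage 4 (0.052). SOD1 lost its call in MM1R with only the libraries compared (0.072) and without untreated passages 4 (0.088) and 6 (0.13) or WA passages 6 (0.057) and 7 (0.11), and in MM1S without untreated passages 16 (0.066), 22 (0.087) and 23 (0.074) or WA passages 16 (0.066) and 23 (0.086).

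Signs turned only among values that were not called. For MTF1 between the lines with WA the value became 0.00 with DESeq2 and with its size factors and -0.01 with no filter. For SLC30A1 between the untreated lines it became -0.01 with DESeq2, with its size factors and with no filter, and between the lines with WA 0.03 with at least 10 reads and 0.01 with only the libraries compared. For SLC30A1 the interaction of line and WA became 0.01, 0.00, 0.03 and 0.01 with DESeq2's size factors, no filter, at least 10 reads and DESeq2, and 0.01 and 0.02 with the replicate block in edgeR and DESeq2. Single libraries left out gave, for the lines untreated, MT1X -0.47 to 0.40, MT2A -0.31 to 0.43 and SLC30A1 -0.12 to 0.14. For the lines with WA they gave MT2A -0.40 to 0.15, MTF1 -0.13 to 0.17 and SLC30A1 -0.06 to 0.14. For WA they gave MT1X -0.28 to 0.58 and MT2A -0.50 to 0.20 in MM1R and MT2A -0.10 to 0.26 in MM1S. For the interaction they gave MT1X -0.60 to 0.26, MT2A -0.58 to 0.14, MTF1 -0.20 to 0.10 and SLC30A1 -0.14 to 0.14.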
